A study of Mus musculus with 6 samples.

Results

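Metallothioneins and their zinc response partners were followed in cultured adult mouse neural stem cells. The set holds 5 genes, chosen by symbol: the metallothionein genes Mt1, Mt2 and Mt3, the zinc-sensing transcription factor gene Mtf1 and the zinc exporter gene Slc30a1. All 5 were found among the 24421 genes of the count table, and all 5 passed the filter on low counts, as did 14417 genes in all. The cells were wild type neural stem cells of the subventricular zone, a niche beside the lateral ventricles, from C57BL/6 mice at postnatal day 60. Every culture received EGF and FGF2 at 20 ng/ml. The control group, DMSO, received the solvent, and the PluriSIn#2 group received 20 µM of a compound that the labels describe as an inhibitor of topoisomerase IIA, each for 3 days and with 3 RNA libraries. The labels name no separate animals or cultures, so the spread between libraries may be technical. Treated replicates 2 and 3 carry PluriSIn#3 and PluriSIn#4 in their treatment field but PluriSIn#2 in their titles, which set the groups here.

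Metallothioneins are small, cysteine-rich proteins that bind zinc and copper, buffer free metal ions and scavenge oxidants. Zinc that exceeds the buffer binds the zinc fingers of the factor made from Mtf1, which then activates Mt1, Mt2 and Slc30a1 through short promoter motifs called metal response elements. Mt1 and Mt2 are made in most tissues and, in the brain, are abundant in astrocytes; they also respond to glucocorticoids and oxidants. Mt3 is enriched in the brain and is known to respond less to metals. Slc30a1 encodes the exporter that moves zinc across the plasma membrane out of the cell.

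The 3 metallothionein transcripts rose together after PluriSIn#2, Slc30a1 rose by less, and Mtf1 was not called. The summed FPKM of Mt1, Mt2 and Mt3 (the authors' expression value per transcript length and library depth) was 1059 ± 58.9 in DMSO and 3673 ± 149 in PluriSIn#2 (mean ± SD, n = 3 per group), 3.47 times as much. Their reads made up 0.0585 ± 0.0032% of all counts in DMSO and 0.203 ± 0.0082% in PluriSIn#2. Of the 5 genes 4 were called higher and none lower, where 41.7% of all genes tested were called higher and 40.9% lower (edgeR's quasi-likelihood test, Benjamini-Hochberg adjusted p under 0.05). In bulk RNA, a change in the share of a cell type and a change in RNA per cell cannot be told apart.

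Total counts lay between 16670962 and 19241869 per library. Top2a, the gene of the inhibited enzyme, stood between 853 and 892 CPM (counts relative to library depth) in DMSO and between 4.98 and 7.46 CPM in PluriSIn#2. All 9 neural stem cell markers looked for were measured, with a summed level of 6450 to 6586 CPM in DMSO and 4964 to 5042 CPM in PluriSIn#2, where 6 were called lower and 3 higher. Markers of other cells moved with the treatment as well. All 12 astrocyte markers were called higher, and their summed level went from 4862 to 4884 CPM in DMSO to 16832 to 17075 CPM in PluriSIn#2. Of 12 macrophage and microglia markers 10 were called higher (7.65 to 8.68 CPM against 177 to 183 CPM in sum), and 2 had too few reads to be tested. Trem2 was at 0 in every DMSO library. Fibroblast and mural markers (7 of 8 called higher, 23.7 to 24.6 against 220 to 225 CPM in sum), endothelial markers (6 of 7, 5.81 to 6.69 against 32.5 to 35.9 CPM), choroid plexus and ependymal markers (7 of 8, 39.4 to 41.0 against 650 to 670 CPM) and neuron markers (6 of 8, 76.2 to 83.5 against 126 to 130 CPM) rose too. Of the choroid plexus and ependymal markers, 1 had too few reads to be tested. Single genes held much of some sums. Mean CPM in DMSO and PluriSIn#2 was 1.89 and 500 for Ttr and 34.1 and 144 for Foxj1. It was 260 and 5482 for Apoe and 802 and 4368 for Sparcl1. Among stem cell markers, Vim was at 2667 and 3059 CPM, so the stem cell sum follows it in large part. By log2 fold change, Nes (-1.44) and Fabp7 (-1.23) fell and Sox9 (0.81), Msi1 (0.68) and Vim (0.20) rose among stem cell markers, and Apoe (4.40), Sparcl1 (2.44), Lyz2 (6.00), Ctss (6.02), Col3a1 (6.60), Col1a2 (5.89), Cdh5 (6.93), Esam (2.84), Ttr (8.04), Foxj1 (2.08), Gad1 (1.34) and Slc32a1 (2.37) rose among the others. The part of these cells in the values of the 5 genes, and of all other genes named below, was not tested.

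The metallothionein genes sit side by side on the plus strand of chromosome 8 within 27.7 kb (GRCm38, the build also called mm10, GENCODE annotation). Mt3 spans 94152607 to 94154146, Mt2 94172664 to 94173568, and Mt1 94179082 to 94180327. Mtf1 lies on chromosome 4 from 124802104 to 124849800 and Slc30a1 on chromosome 1 from 191906767 to 191913247, both on the plus strand. No stretch of 50 bases in the annotated Mt1 or Mt3 transcripts occurred in a transcript of another gene, so Mt1 and Mt2 reads of that length can be told apart. Exons on the opposite strand overlap Mt2 (432 bases of Gm45774), Mtf1 (721 bases of 1110065P20Rik) and Slc30a1 (468 bases of 1700034H15Rik). A strand setting for the counting was not given in the sources used here. Reads in those stretches may therefore be mixed or lost. The partner of Slc30a1 had 4 to 19 counts per library and that of Mtf1 469 to 619. That of Mt2 was not listed among the genes counted. Of the stretches of 50 bases in Mt2 transcripts, 45.8% also occurred in Gm45774, read on either strand.

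The 250 bases before the RefSeq transcript start (GRCm38.p6) are shown for the 4 genes that rose, because Mt1, Mt2 and Slc30a1 are textbook targets of the factor from Mtf1 and Mt3 moved with them. Capitals mark the core of the metal response element, searched as TGCACNC and TGCGCNC on both strands, so that a match on the minus strand reads as its reverse complement, as in GTGTGCA. The stretches are chr8:94178839-94179088 for Mt1, chr8:94172368-94172617 for Mt2, chr8:94152357-94152606 for Mt3 and chr1:191906531-191906780 for Slc30a1, all plus strand and 5′ to 3′.
Mt1: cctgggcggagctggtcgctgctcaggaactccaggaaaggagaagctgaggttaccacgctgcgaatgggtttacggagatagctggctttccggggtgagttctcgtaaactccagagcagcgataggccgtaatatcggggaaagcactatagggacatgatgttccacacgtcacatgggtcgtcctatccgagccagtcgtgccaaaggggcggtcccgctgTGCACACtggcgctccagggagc
Mt2: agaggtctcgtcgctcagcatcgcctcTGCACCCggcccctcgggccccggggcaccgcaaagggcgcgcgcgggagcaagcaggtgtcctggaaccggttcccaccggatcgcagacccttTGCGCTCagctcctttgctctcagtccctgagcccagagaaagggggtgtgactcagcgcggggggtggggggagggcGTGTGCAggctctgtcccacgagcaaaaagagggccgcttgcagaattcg
Mt3: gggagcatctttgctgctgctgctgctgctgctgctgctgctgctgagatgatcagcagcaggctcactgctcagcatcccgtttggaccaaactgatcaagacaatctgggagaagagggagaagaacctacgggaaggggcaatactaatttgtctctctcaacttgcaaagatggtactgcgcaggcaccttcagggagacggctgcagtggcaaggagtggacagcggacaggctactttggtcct
Slc30a1: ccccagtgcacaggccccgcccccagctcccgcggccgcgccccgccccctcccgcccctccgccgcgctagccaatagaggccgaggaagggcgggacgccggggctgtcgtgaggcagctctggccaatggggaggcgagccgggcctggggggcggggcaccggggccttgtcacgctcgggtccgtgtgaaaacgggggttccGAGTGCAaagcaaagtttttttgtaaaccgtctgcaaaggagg

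Counted over the 300 bases that add the first 50 of the transcript, the core occurred 4 times in Mt2, 3 times in Mt1, 2 times in Slc30a1, once in Mt3 and not in Mtf1. Among 32841 RefSeq promoter windows of that length 25.7% held at least 1 match, 7.12% at least 2, 1.97% at least 3 and 0.518% at least 4. In Mt2 the matches began 223, 128 and 50 bases before the start and at base 5 of the transcript, in Mt1 23 bases before it and at bases 3 and 21, and in Slc30a1 43 bases before it and at base 31. The single match of Mt3 began at base 28 of the transcript, so its stretch above has no capitals. The core of the antioxidant response element, searched as TGACNNNGC on both strands and held by 12.4% of windows, was found once in Mt2, beginning 79 bases before the start, and once in Slc30a1, 82 bases before it. No match overlapped another. The latest annotated start lies beyond the end of the window for each of the 5 genes, by 426 bases for Slc30a1, 193 for Mt2, 103 for Mt1, 90 for Mt3 and 80 for Mtf1. These bases were not searched, so the counts hold for the windows only. The RefSeq start of Mt2 (94172618) also lies before its first GENCODE start (94172664). Positions before the start or in the transcript therefore hold for the RefSeq starts only.

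Mt1, the widely expressed metal buffer, stood at 234, 229 and 239 CPM in DMSO replicates 1, 2 and 3 and at 808, 827 and 798 CPM in PluriSIn#2 replicates 1, 2 and 3. Every treated library lay above every control library, and the 3 values of each group were close to each other. The means were 234 ± 4.95 and 811 ± 14.7 CPM (SD, n = 3 per group), a rise of 3.47-fold (log2 fold change 1.79, SE 0.024, edgeR adjusted p = 1.28e-76). A higher log2 fold change was found for 1036 of the 14417 genes tested.

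Mt2 encodes the twin of the Mt1 protein and is usually induced with it. It was the least abundant of the 3 metallothioneins, with 78.7, 79.9 and 84.4 CPM in DMSO and 297, 314 and 316 CPM in PluriSIn#2. The groups were far apart. The rise from 81.0 ± 3.00 to 309 ± 10.7 CPM (SD, n = 3 per group) was 3.81-fold and the largest among the 5 genes (log2 fold change 1.93, SE 0.032, edgeR adjusted p = 1.67e-68).

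Mt3, the brain-enriched form, was at 313, 253 and 288 CPM in DMSO and at 863, 932 and 798 CPM in PluriSIn#2. The groups did not overlap, but the libraries of each group were spread more widely than for Mt1 and Mt2. Its means of 285 ± 30.1 and 864 ± 66.7 CPM (SD, n = 3 per group) differed 3.04-fold (log2 fold change 1.60, SE 0.033, edgeR adjusted p = 6.64e-62). This edgeR SE was near that of Mt2 and does not reflect the wider spread of Mt3. In the alternative fits with DESeq2 and with limma on log2(FPKM + 1), the SE was 0.11 and 0.079 for Mt3. For Mt2 it was 0.040 and 0.033.

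Slc30a1, the zinc exporter, had 38.4, 42.1 and 40.5 CPM in DMSO and 53.3, 51.5 and 52.4 CPM in PluriSIn#2. The treated libraries were again all above the controls, by a much smaller distance. The rise from 40.4 ± 1.86 to 52.4 ± 0.934 CPM (SD, n = 3 per group) was 1.30-fold (log2 fold change 0.38, SE 0.052, edgeR adjusted p = 4.53e-10), and 4788 genes had a higher log2 fold change. The gene length implied by counts and FPKM was 1.07 times as long in the treated libraries as in the controls for Slc30a1, and was equal within 1% for the other 4 genes.

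Mtf1, the zinc sensor, was measured at 40.8, 42.0 and 41.5 CPM in DMSO and at 39.0, 40.4 and 38.6 CPM in PluriSIn#2. The treated values were all slightly below the controls, from means of 41.5 ± 0.603 to 39.3 ± 0.893 CPM (SD, n = 3 per group), but the difference was not called (log2 fold change -0.08, SE 0.055, edgeR adjusted p = 0.198). In FPKM the groups overlapped, with 5.14 to 5.33 in DMSO and 5.10 to 5.32 in PluriSIn#2. Thus the 3 and 3 libraries of all 5 genes were apart in CPM, a state shared by 82.7% of genes tested.

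**Figure D1:**
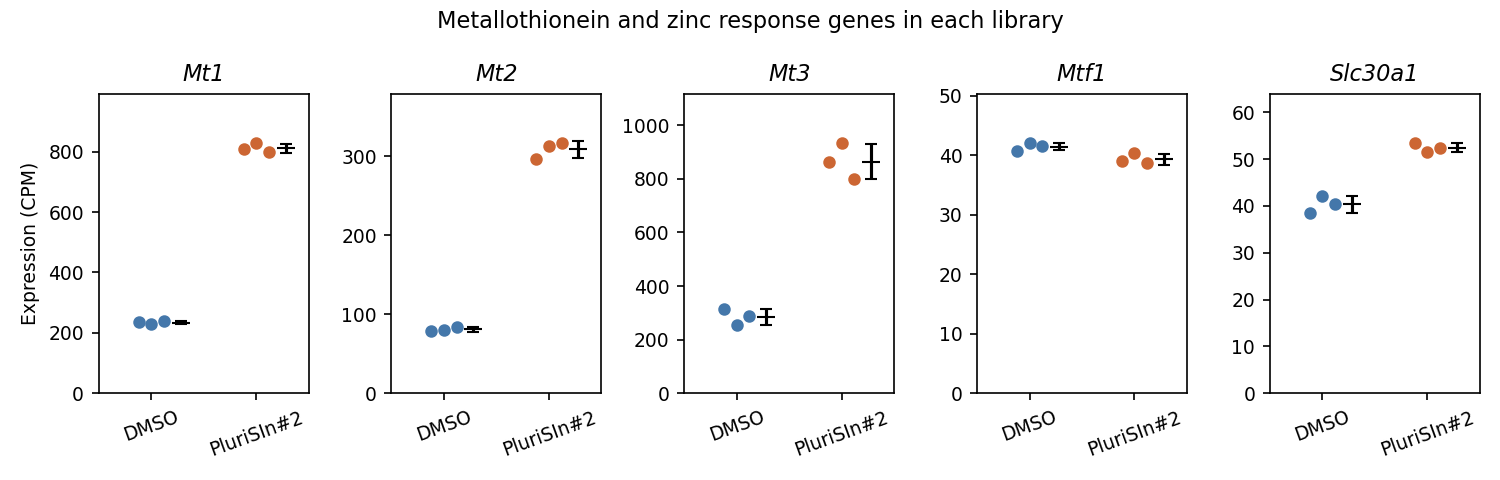
Expression of the 5 genes in CPM (vertical axes from 0, scaled separately) in each DMSO (blue) and PluriSIn#2 (orange) library; the black mark gives the mean ± SD of 3 libraries. The treated points of Mt1, Mt2, Mt3 and Slc30a1 lie above all their controls, with group means 3.47-, 3.81-, 3.04- and 1.30-fold higher, and those of Mtf1 lie slightly below theirs.

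The authors' deposited table gave log2 fold changes of 1.79 for Mt1, 1.92 for Mt2, 1.60 for Mt3, 0.37 for Slc30a1 and -0.08 for Mtf1. In the authors' deposited table the adjusted p was listed as 0 for Mt1 and Mt2, 3.88e-49 for Mt3, 7.27e-08 for Slc30a1 and 0.318 for Mtf1.

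**Figure D2:**
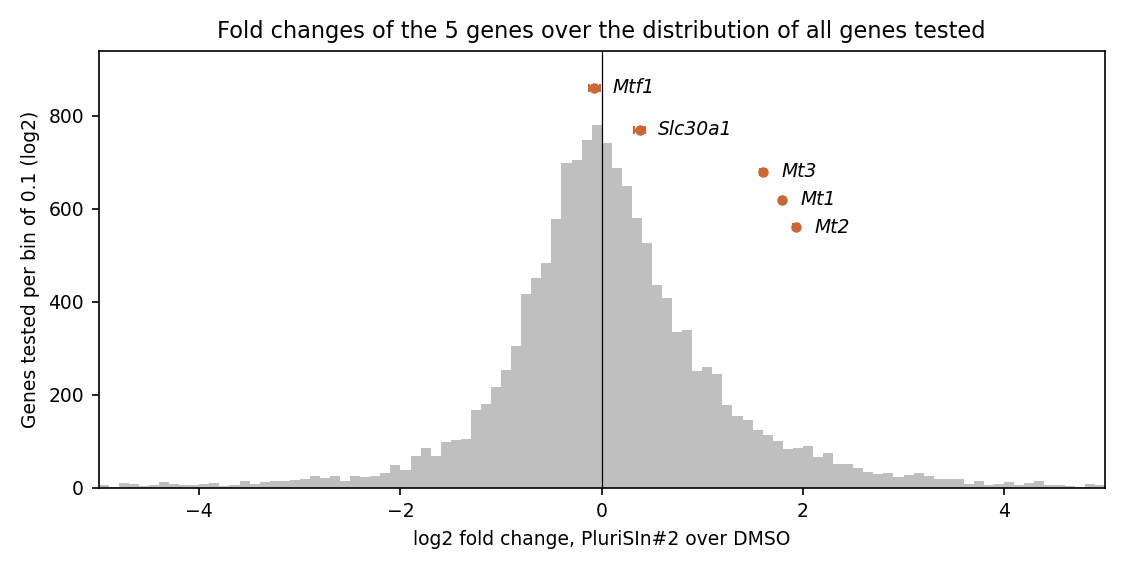
Histogram of the log2 fold change of PluriSIn#2 over DMSO for the genes tested (grey, bins of 0.1, axis limited to 5 on either side), with the 5 genes (orange, ± SE) at heights chosen only for legibility. Mt3, Mt1 and Mt2 lie between 1.60 and 1.93 on the right flank, while Slc30a1 and Mtf1 lie near the centre.

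Levels of different genes were compared per length, as FPKM. The lengths implied by the authors' FPKM were 553, 567 and 549 bases for Mt1, Mt2 and Mt3. Their exons in the GENCODE annotation cover 1246, 588 and 1066 bases. Levels, ratios and overlaps between genes therefore depend on the length used and hold for the authors' FPKM only. The order was the same in both groups: Mt3 (507 ± 53.3 in DMSO and 1613 ± 124 in PluriSIn#2, SD, n = 3), Mt1 (413 ± 8.14 and 1502 ± 26.2), Mt2 (139 ± 4.98 and 558 ± 18.8), Slc30a1 (9.40 ± 0.222 and 12.02 ± 0.0833) and Mtf1 (5.23 ± 0.0996 and 5.21 ± 0.109). In DMSO the Mt3 libraries, from 451 to 557 FPKM, were all above those of Mt1, from 405 to 421 FPKM. In PluriSIn#2 Mt3 (1490 to 1737 FPKM) and Mt1 (1478 to 1530 FPKM) overlapped, and no other neighbours in the order did in either group. Ranked by mean FPKM among 19193 genes, Mt3 moved from place 57 to 14, Mt1 from 72 to 15 and Mt2 from 381 to 59.

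The balance among the 3 metallothioneins was examined as ratios within each library, which do not depend on scaling between libraries. The size of each ratio depends on the gene lengths used. The Mt2 to Mt1 ratio was 0.328, 0.340 and 0.345 in DMSO and 0.358, 0.370 and 0.386 in PluriSIn#2. All treated ratios were above all control ratios, and their log2 means differed by 0.14 (two-sided exact permutation p = 0.1 with n = 3 per group, adjusted over 2 ratios 0.2). The Mt3 to Mt1 ratio was 1.35, 1.11 and 1.22 in DMSO and 1.08, 1.14 and 1.01 in PluriSIn#2. These groups overlapped and differed by -0.19 on the log2 scale (exact permutation p = 0.2, adjusted 0.2). With 3 against 3 libraries the exact permutation test cannot give a p below 0.1, so neither shift could have passed the threshold. Mt3 made up 47.7 ± 2.48% of the summed metallothionein FPKM in DMSO and 43.9 ± 1.64% in PluriSIn#2 (SD, n = 3).

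**Figure D3:**
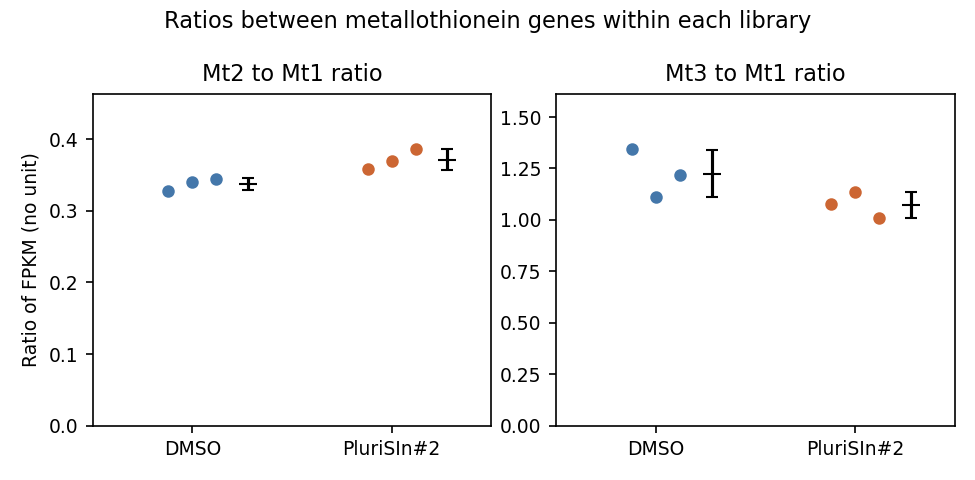
Ratio of FPKM (no unit, axes from 0) of Mt2 to Mt1 and of Mt3 to Mt1 within each DMSO (blue) and PluriSIn#2 (orange) library, with the mean ± SD of 3 libraries in black. The Mt2 to Mt1 ratios of the groups are apart, from 0.328 to 0.345 and from 0.358 to 0.386, and the Mt3 to Mt1 ratios overlap.

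The other genes of zinc traffic moved in both directions, as did all genes tested, of which 41.7% were called higher and 40.9% lower. These shares are the background for the counts of each list and of the neighbours below. Of 10 other zinc exporters 7 were measured, of which 3 were called higher and 4 lower, with a median log2 fold change of -0.14 where that of all genes tested was 0.01. Slc30a9, linked to mitochondrial zinc, rose from 118 ± 2.75 to 164 ± 3.15 CPM (0.48 on the log2 scale, SE 0.033), and Slc30a6, of the Golgi, rose from 18.4 ± 1.35 to 24.4 ± 1.30 CPM (0.41, SE 0.076). Slc30a7, which loads zinc into the secretory pathway, fell from 62.5 ± 1.15 to 43.2 ± 3.14 CPM (-0.53, SE 0.050), and the vesicular Slc30a4 fell from 85.1 ± 2.06 to 65.9 ± 2.68 CPM (-0.37, SE 0.042). The adjusted p in edgeR was at most 1.02e-06 for each (SD over n = 3 per group). Thus Slc30a1 was 1 of 4 exporters that rose.

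All 14 zinc importers were measured, 9 called higher, 2 lower and 3 not called, with a median log2 fold change of 0.16. Slc39a12, a brain-enriched plasma membrane importer, was at 3.25, 4.67 and 4.32 CPM in DMSO and at 77.7, 79.1 and 76.0 CPM in PluriSIn#2. This was the largest change among the zinc transporters measured (log2 fold change 4.25, SE 0.079, edgeR adjusted p = 4.73e-65) and exceeded that of each metallothionein. Slc39a13, of intracellular vesicles and the Golgi, rose from 27.7 ± 1.18 to 65.8 ± 0.772 CPM (1.25, SE 0.054, edgeR adjusted p = 1.51e-37). Slc39a10 fell from 136 ± 1.85 to 104 ± 0.995 CPM (-0.38, SE 0.035) and Slc39a9 from 89.3 ± 4.40 to 76.2 ± 3.68 CPM (-0.23, SE 0.042). The adjusted p in edgeR was at most 7.84e-07 for both.

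**Figure D4:**
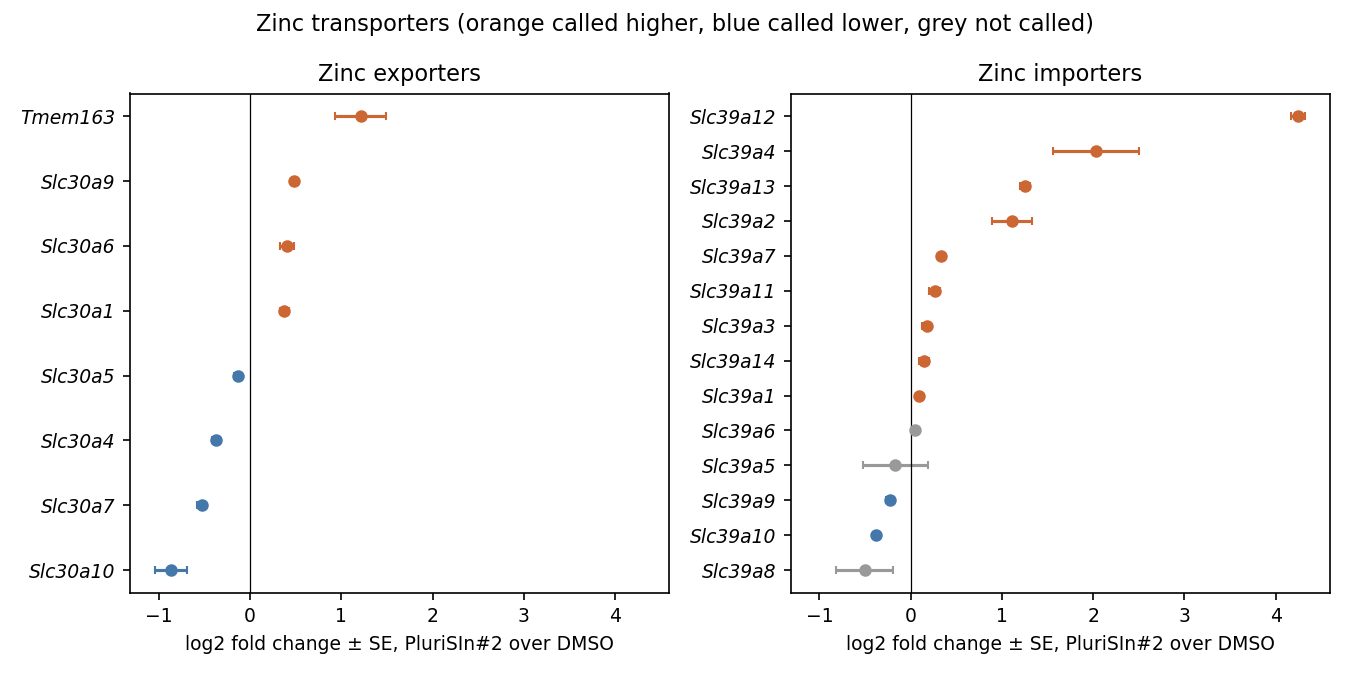
Log2 fold change ± SE of PluriSIn#2 over DMSO (horizontal axis) for the zinc exporters and importers that passed the filter on low counts, with Slc30a1 among the exporters; orange was called higher, blue lower and grey not called. Exporters lie on both sides of 0, and Slc39a12 stands apart from the other importers at 4.25.

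Of 7 other genes attributed to the factor from Mtf1 in the literature 6 were called higher and 1 lower (median log2 fold change 0.59). Gclc, which encodes the catalytic subunit for glutathione synthesis, rose from 157 ± 5.50 to 304 ± 3.12 CPM (0.95, SE 0.029, edgeR adjusted p = 9.11e-49). The iron exporter gene Slc40a1, which macrophages also make, rose from 0.662 ± 0.115 to 16.8 ± 0.811 CPM (4.65, SE 0.17, edgeR adjusted p = 2.58e-42). Markers of macrophages and of several other cell types were higher in the same libraries, and their part in this rise was not tested. The 1 that fell was Slc39a10, also 1 of the importers above. The factor is known to repress it. Whether the factor acted on any of these genes was not tested.

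Metallothioneins also bind copper, and of 13 copper handling genes 12 were measured, with 8 called higher, 3 lower and 1 not called (median log2 fold change 0.34). The multicopper oxidase gene Cp rose from 13.1 ± 1.24 to 52.5 ± 1.94 CPM (2.00, SE 0.068), and Ccs, the copper chaperone of superoxide dismutase, rose from 20.2 ± 0.363 to 42.6 ± 3.17 CPM (1.08, SE 0.065). The high-affinity copper importer gene Slc31a1 fell from 124 ± 5.32 to 99.4 ± 2.71 CPM (-0.32, SE 0.037) and Commd1 from 53.8 ± 0.682 to 39.5 ± 2.14 CPM (-0.44, SE 0.052). For these genes the adjusted p in edgeR was at most 1.66e-12.

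Of the 12 genes of oxidant and heavy metal stress 10 were called higher, 1 lower and 1 not called (median log2 fold change 0.70). Gclc is on this list as well as among the genes attributed to the factor from Mtf1. Hmox1, the heme oxygenase gene that heavy metals and oxidants induce, rose from 78.0 ± 2.08 to 616 ± 10.8 CPM (2.98, SE 0.029, edgeR adjusted p = 1.50e-87). Srxn1, which repairs oxidized peroxiredoxins, rose from 42.9 ± 0.866 to 219 ± 3.57 CPM (2.35, SE 0.037, edgeR adjusted p = 1.81e-70). Of the heat shock genes and the co-chaperone gene on the list, Hspa1a (log2 fold change 0.49), Bag3 (0.42) and Dnajb1 (0.15) rose, with an adjusted p in edgeR of at most 0.0085. The Hspa1a groups overlapped, with 3.92, 2.81 and 2.99 CPM in DMSO and 4.96, 5.04 and 3.57 CPM in PluriSIn#2. It had 50 to 92 reads per library. Hspa1b was not called (4.26 ± 0.416 and 4.82 ± 0.270 CPM, edgeR adjusted p = 0.285), and Hsph1 fell from 157 ± 5.16 to 135 ± 3.57 CPM (-0.22, SE 0.033, edgeR adjusted p = 2.72e-09).

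Of 8 genes of the glucocorticoid response 7 were called higher and 1 lower (median log2 fold change 0.67). The kinase gene Sgk1 rose from 17.3 ± 1.97 to 45.7 ± 2.52 CPM (1.40, SE 0.068) and the clock gene Per1 from 70.0 ± 0.822 to 112 ± 0.919 CPM (0.68, SE 0.039). Fkbp5, a chaperone of the receptor and a common reporter of its activity, fell from 60.0 ± 2.10 to 17.2 ± 1.07 CPM (-1.80, SE 0.062). For each the adjusted p in edgeR was at most 5.24e-29.

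The neighbours of the metallothionein cluster given here ranged from -0.77 to 1.51 in log2 fold change. Of 9 protein-coding neighbours 7 were measured, with 4 called higher, 2 lower and 1 not called (median log2 fold change 0.27). The nearest, Mt4, the metallothionein of squamous epithelium, lies 13.6 kb before Mt3 and had 0 reads in DMSO and 3 in PluriSIn#2. Nup93, a nuclear pore gene 34.2 kb beyond Mt1, fell from 140 ± 3.35 to 97.7 ± 1.24 CPM (-0.51, SE 0.035, edgeR adjusted p = 3.08e-24). Bbs2, a gene of the cilium 53.7 kb on the other side, rose from 22.9 ± 0.869 to 41.6 ± 2.54 CPM (0.86, SE 0.063, edgeR adjusted p = 2.35e-22). Farther out on that side, Nudt21 fell (-0.77) and Ogfod1 was not called (0.06, edgeR adjusted p = 0.315), although it was called higher when only library totals were used for scaling (0.13, edgeR adjusted p = 0.024). Beyond Nup93, Herpud1 (0.48) and Cpne2 (0.27) rose, and so did Nlrc5, an immune regulator gene with 72 reads in DMSO and 200 in PluriSIn#2 (1.51, SE 0.23). Nlrc5 lay within 1 SE of Mt3 (1.60). Without each library in turn, Nlrc5 ran from 1.38 to 1.67 and Mt3 from 1.52 to 1.67. Nlrc5 was above Mt3 only without PluriSIn#2 replicate 1 (1.67 against 1.60) and below it without any other library. Slc12a3 had 4 reads in DMSO and 9 in PluriSIn#2 and was not tested.

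**Figure D5:**
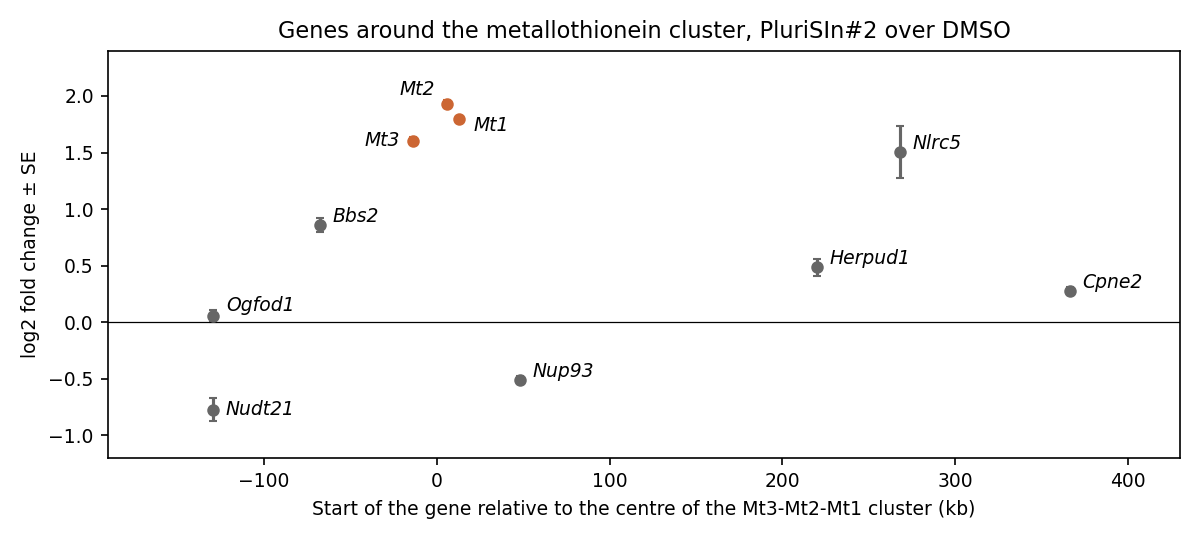
Log2 fold change ± SE of PluriSIn#2 over DMSO (vertical axis) for genes around the metallothionein cluster, by the distance of their start from its centre in kb (horizontal axis); metallothioneins are orange, other protein-coding genes grey. The 3 metallothioneins lie at 1.60 to 1.93, Nlrc5 lies within its SE of Mt3, and Nup93 and Nudt21 lie below 0.

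Genes with the most similar pattern were sought by the smallest root mean square difference between log2 CPM profiles, each relative to its own mean over the 6 libraries, among 11412 other genes averaging at least 5 CPM. Nearest to Mt1 were Fos (0.032 log2 units), Cend1 (0.034) and Lrrc28 (0.034), and nearest to Mt2 were Abhd4 (0.034), Gsta4 (0.038) and Smox (0.041). For Mt3 they were Tnfaip2 (0.036), Pcdhgc5 (0.057) and Npr2 (0.058), for Slc30a1 Ppp3ca (0.018), Dctn4 (0.022) and Msantd4 (0.023), and for Mtf1 Pja1 (0.012), Cnn3 (0.015) and Praf2 (0.015). Mt1 and Mt2 differed by 0.077, with 51 genes closer to Mt1 than Mt2 was, and Mt1 and Mt3 by 0.13, with 168 genes closer. These distances describe 6 libraries in 2 groups and carry no test.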

How the data were processed

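The tools STAR, HTSeq and DESeq and the build mm10 are named in the submitters' processing notes. Versions, annotation and strand setting were not given in the sources used here. A deposited count table holds whole-number counts per gene symbol. The deposited FPKM table holds the authors' FPKM, log2 fold changes and p-values; its 25 rows whose names had turned into dates were left out, which left 19193. Counts were tested with edgeR 4.0.16 in R 4.3.3 (TMM, filterByExpr, quasi-likelihood F test, two-sided, group as the only term), with Benjamini-Hochberg adjustment over 14417 genes and a threshold of 0.05. SE, also in the figures, is the log2 fold change divided by the square root of F. It comes from the edgeR fit and was smaller for Mt3 than in DESeq2 or limma. CPM uses library totals times TMM factors. Alternatives used DESeq2 1.42.0 and limma 3.58.1 on log2(FPKM + 1) and log2(FPKM + 0.1), for genes with an FPKM of at least 1 in 3 libraries. The scripts were tested on simulated data.

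The 5 genes and all gene lists (zinc exporters and importers, targets attributed to MTF1, copper, stress, glucocorticoid and cell markers) were chosen with earlier results of these data known. Named were the 5 genes, the 2 called genes of smallest p in each direction of a list, the most abundant marker of each marker list, the neighbours by position (5 on each side, of which 1 is not reported here) and the 3 most similar genes. Hspa1a, Hspa1b, Bag3, Dnajb1 and Trem2 were named after their values were seen. Promoters came from RefSeq (GRCm38.p6), where all 5 genes matched. Chi-square statistics per degree of freedom were 1.56 to 2.22 between replicates, so none was a copy.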

Additional observations from a re-analysis of the deposited data

How the results depend on the processing

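The 5 genes kept their direction and their side of the threshold under all 15 alternatives run. Without each library in turn, the log2 fold change ran from 1.77 to 1.80 for Mt1, 1.90 to 1.96 for Mt2, 1.52 to 1.67 for Mt3, 0.34 to 0.40 for Slc30a1 and -0.09 to -0.07 for Mtf1. With PluriSIn#2 replicate 1 alone as the treated sample, assumed to vary like the DMSO libraries, Slc30a1 was at 0.40 (edgeR adjusted p = 1.44e-06). Mtf1 came closest to 0 in limma on log2(FPKM + 1), at -0.005 (adjusted p = 0.928, with a range of 0.148 to 0.929 over its alternatives). Of the genes in the fixed lists, 86 to 96 were called higher and 14 to 18 lower, against 93 and 17. The ratio differences ran from 0.11 to 0.16 for Mt2 to Mt1 and from -0.26 to -0.12 for Mt3 to Mt1 without single libraries; dividing counts by exonic length leaves a difference unchanged by construction. Same-numbered libraries did not deviate together (correlations of -0.019, -0.025 and 0.0062), and no library correlated best with its own number. With the replicate number as a block, 5984 genes were called higher and 5867 lower, against 6015 and 5900, and no call of the 5 genes changed. Pja1, named for its likeness to Mtf1, changed sign with library totals only (0.0092) and in limma (0.0076 and 0.0079), and was not called there; Cnn3 lost its call under the same settings and Ogfod1 gained one with library totals only (0.13), and the cause was not tested. Few reads limit Mt4 and Slc12a3, and Nlrc5 has no limma value because it lies under the FPKM minimum.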

Other observations

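Among the 3 metallothioneins, Mt3 varied most between libraries of one group. Its coefficient of variation was 10.6% over the 3 DMSO libraries, against 2.12% for Mt1 and 3.71% for Mt2, and 93 of 7838 genes averaging at least 25 CPM had one as large. In PluriSIn#2 it was 7.72%, against 1.81% for Mt1, and 448 of these genes had one as large. The lowest values were DMSO replicate 2 (253 CPM) and PluriSIn#2 replicate 3 (798 CPM). The deviation appears in the deposited FPKM as well (451 and 1490), and its cause was not tested.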
